A study of Prunus persica with 8 samples.

Results

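On or off expression between sibling peach trees was examined outside a fixed set of chromosome segments, which are listed below. A gene was taken as switching when its lowest level among 8 trees was at most 0.1 TPM and its highest at least 5 TPM, where TPM is a transcript level corrected for the length of the gene and for the size of the library. All of Pp02, Pp03 from 17 Mb, Pp06 from 28 Mb and 2 genes of Pp01 (Prupe.1G291100 and Prupe.1G291800) were left out. Of 26873 annotated genes 21415 lie outside these segments, and 122 of these switched (0.570%, or 0.930% of the 13112 genes there that reached 5 TPM in any tree). The genes were chosen by their levels in the lowest and the highest tree, so these levels are given as a description without a test.

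The trees were 4 pillar and 4 standard peaches (Prunus persica), mature and untreated, from the field of a USDA station and from 1 F2 population. Pillar trees have upright branches and carry loss-of-function alleles of TAC1, a gene that promotes outward branch growth, whereas standard trees have the spreading habit. RNA came from lateral branch tips, with 1 library of single 50-bp reads for each tree. The pillar trees are numbered 4, 7, 8 and 10, the standard trees 7, 8, 9 and 10, and lists of values follow this order within each growth habit. The series labels state that the standard libraries had served an earlier study. No separate harvest or sequencing run is stated, so the growth habit and any batch it coincides with cannot be told apart.

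Each tree of a selfed population inherits its own mixture of the chromosome copies of a heterozygous parent. Genes that lie close together on a chromosome are usually inherited together, and an allele that yields no transcript is seen as a gene without expression in the trees that carry only that allele. Genes of conditional programmes, such as the responses to wounding or to pathogens, can also be nearly without transcript in one tree and well expressed in another. Alleles were not read in these trees, and expression values do not separate these cases.

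The trees held 18429259 to 22684900 reads in pillar and 21523286 to 23994336 reads in standard libraries, and the libraries of pillar 4 and 7 were sequenced in lane 8 and the others in lane 6. TAC1 (Prupe.2G194000) had 0.802 to 1.27 TPM in pillar trees and 17.2 to 28.2 TPM in standard trees, so that every library matched its label. Pillar 4 was highest for 17 of the 18 jasmonate genes of the annotated gene list. The 18 genes summed to 3149 TPM in pillar 4 and to 568 to 1144 TPM in the other pillar trees, against 465 to 909 TPM in the standard trees. Marker genes could be matched only by the descriptions of that list, which was drawn up for differences between the growth habits. The 3 chlorophyll a-b binding genes, which neighbour the switching genes Prupe.1G021500 and Prupe.1G021700, summed to 270 to 744 TPM in pillar trees and 766 to 2351 TPM in standard trees. The small subunit of rubisco (1 gene) had 4.51 to 27.3 TPM in pillar trees and 28 to 60.6 TPM in standard trees. Flower genes (2) summed to 1.25 to 6.71 TPM in pillar trees and 5.05 to 11.6 TPM in standard trees, and pollen genes (7) to 156 to 245 TPM in pillar trees and 113 to 157 TPM in standard trees. No knotted-like or root gene could be matched, and the part of these tissues in the results was not tested. Fewer cells of a type and less RNA for each cell cannot be told apart in such whole tips.

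Switching genes covered the whole range from expression in a single tree to absence from a single tree. With 1 TPM as the level from which a tree counts as expressing, 8 genes were expressed in 1 tree, 5 in 2, 18 in 3, 24 in 4, 17 in 5, 23 in 6 and 27 in 7 trees. For 56 of the 122 genes every tree lay either at most at 0.1 TPM or at least at 1 TPM, with no tree in between. The lowest tree was listed at exactly 0 TPM for 100 genes. Relative to the level that 3 reads would give in that tree, the highest tree of these 100 genes was at least 3.54-fold higher for each, with a median of at least 34.9-fold and 20 genes at least 100-fold. Highest levels ran from 5.06 to 348 TPM with a median of 10.2 TPM, and 65 genes reached 10 TPM and 11 reached 50 TPM.

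**Figure D1:**
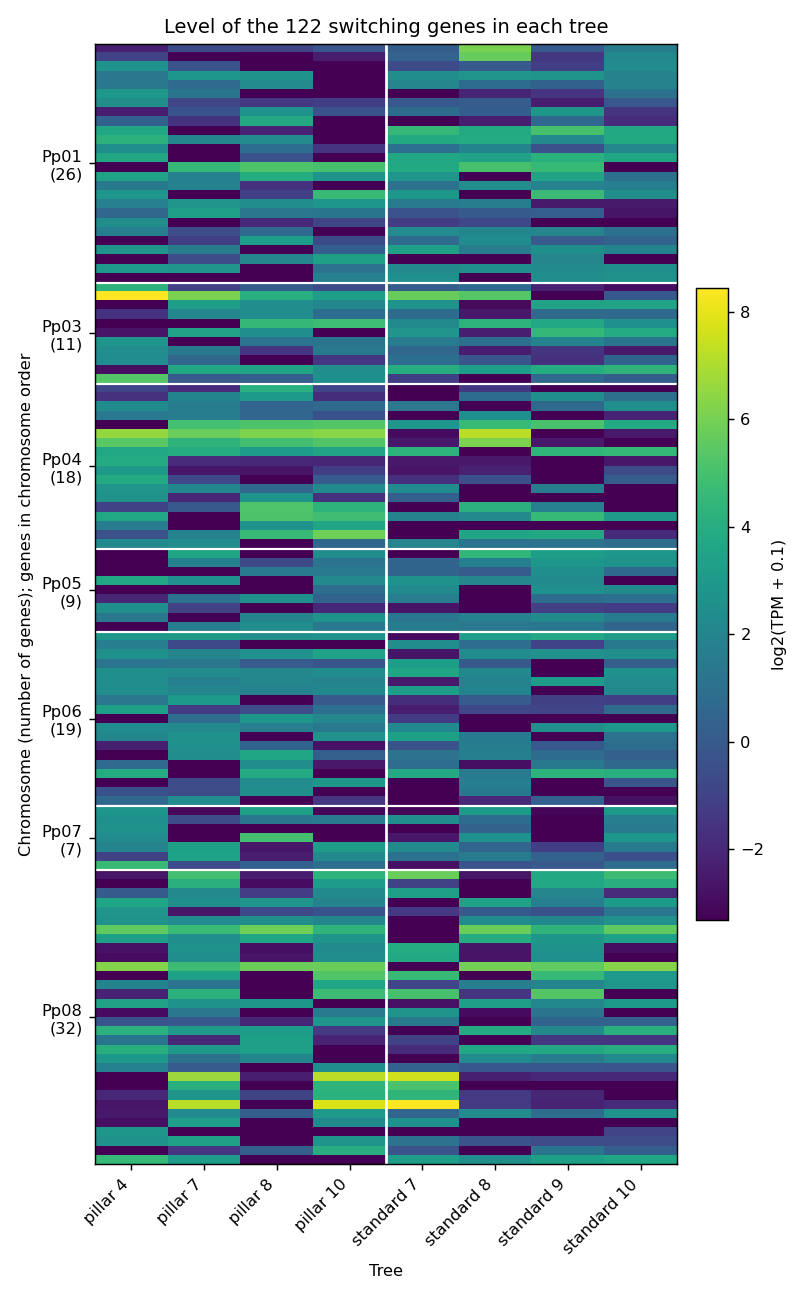
Level of the 122 switching genes (one line each, in chromosome order from top to bottom) in 4 pillar trees on the left and 4 standard trees on the right, as log2(TPM + 0.1). Dark cells are trees without expression, and they form blocks over neighbouring lines mainly on Pp08, the chromosome with 32 of the genes.

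The reads behind these levels set how firmly a switch can be stated. The highest tree held 136 reads at the median, with a range of 10 to 5678 reads, and 30 genes had fewer than 50 reads there. For 64 genes a level of 1 TPM corresponds to fewer than 10 reads, so that expressing and low trees are not sharply separated by counting error. Prupe.1G394500 had the fewest reads. It had 3.27, 0.593, 1.51 and 0 TPM in pillar trees and 5.09, 4.16, 4.04 and 1.95 TPM in standard trees, with 10 reads in standard 7, its highest tree. With at least 50 reads required in the highest tree, a limit chosen after these values were seen, 92 genes remained. At the edge of the rule lay Prupe.1G117100, with 0 TPM in its lowest and 5.06 TPM in its highest tree. Just outside lay Prupe.4G211800, listed at 0 TPM in its lowest tree and with a level just under the limit of 5 TPM in its highest. On the lower limit Prupe.1G021500 was inside with 0.0979 TPM and Prupe.1G564300 outside with 0.103 TPM in the lowest tree.

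**Figure D2:**
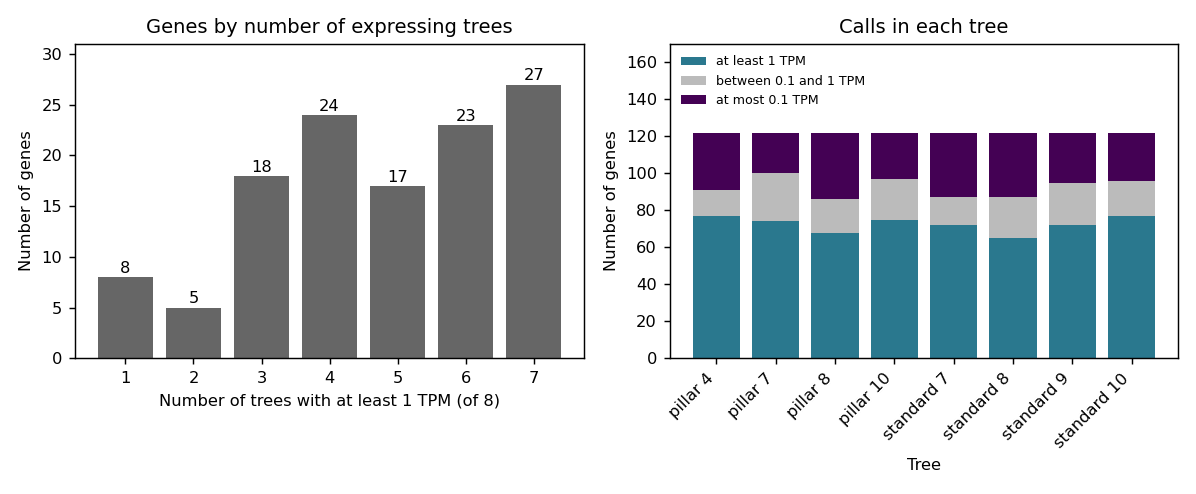
Left, number of switching genes (bars, with counts) by the number of trees that expressed them at 1 TPM or more, and right, number of switching genes in each tree by level, pillar trees left of standard trees. The bar for 7 trees is the highest with 27 genes, and each tree expressed 65 to 77 of the 122 genes.

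All 8 trees took part in the switching. Pillar 4, 7, 8 and 10 expressed 77, 74, 68 and 75 of the 122 genes, and standard 7, 8, 9 and 10 expressed 72, 65, 72 and 77. At most 0.1 TPM was found for 31, 22, 36 and 25 genes in the pillar trees and for 35, 35, 27 and 26 genes in the standard trees. The highest level of a gene was in pillar 4 for 32 genes, in the other pillar trees for 11 to 21 and in the standard trees for 7 to 16. Without pillar 4 the rule found 94 genes, all among the 122, and without any other single tree 102 to 119. Within lane 6, where pillar 8 and 10 stand beside all standard trees, it found 84, and lane 8 held no standard tree. Both trees of lane 8 together were the only expressing trees of 1 gene and the only trees without expression for 1 gene.

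Genes expressed in 1 tree belonged to pillar 4, with 1 exception, and without pillar 4 the number of genes with 1 expressing tree was 4. Pillar 4 alone expressed Prupe.1G129000, Prupe.1G390400, Prupe.4G166000, Prupe.4G198700, Prupe.4G198800, Prupe.5G148100 and Prupe.8G235200, on 4 chromosomes, with 5.35 to 14.8 TPM on 29 to 186 reads. Prupe.4G166000 had 14.8, 0.174, 0.147 and 0.141 TPM in pillar trees and 0.0747, 0.0762, 0 and 0.0714 TPM in standard trees. None of the 7 had all other trees at or under 0.1 TPM, and the other 7 trees ranged up to 0.989 TPM. Of the 18 jasmonate genes 17 were highest in the same tree, and their part in these 7 genes was not tested. The exception was Prupe.4G017100, with 0.442, 0.160, 17.4 and 0.454 TPM in pillar trees and 0, 0.281, 0 and 0 TPM in standard trees, so that pillar 8 was its only expressing tree.

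Among genes expressed in 2 trees the highest levels were those of Prupe.8G125100 and Prupe.6G094400. Prupe.8G125100 had 2.30, 0.157, 10.2 and 0.127 TPM in pillar trees and 0.403, 0, 0.267 and 0.257 TPM in standard trees. Prupe.6G094400 had 2.41, 8.54, 0 and 0.885 TPM in pillar trees and 0.188, 0.959, 0.373 and 0.359 TPM in standard trees. Both were expressed in a pair of pillar trees and under 1 TPM in all standard trees, but the low trees were spread between 0 and 1 TPM rather than at 0. Genes expressed in 4 trees included Prupe.8G093600, with 0.126, 18.6, 0 and 27.0 TPM in pillar trees and 32.4, 0.241, 39.1 and 0 TPM in standard trees. Prupe.4G235400, which overlaps another gene, had 0.401, 0.874, 36.7 and 19.4 TPM in pillar trees and 0, 18.4, 3.36 and 0 TPM in standard trees. The expressing trees of Prupe.8G093600 and of Prupe.4G235400 came from both growth habits.

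Absence from a single tree was spread over 7 of the 8 trees. Of the 27 genes expressed in 7 trees, 4, 3, 3 and 3 were missing from pillar 4, 7, 8 and 10 alone, and 8, 4, 2 and 0 from standard 7, 8, 9 and 10 alone. Prupe.8G080200 had 75.5, 27.0, 56.3 and 56.4 TPM in pillar trees and 0, 63.4, 47.9 and 78.4 TPM in standard trees. Prupe.8G054700 had 47.8, 26, 57.5 and 19.7 TPM in pillar trees and 0, 53.1, 19.8 and 47.1 TPM in standard trees. In both genes standard 7 was listed at 0 TPM and the next lowest tree lay near 20 TPM or above, so a single tree separated from the other 7. Prupe.1G190400 was expressed in 6 trees, with 0, 22.5, 36.2 and 32.6 TPM in pillar trees and 14.3, 32.7, 23.3 and 0 TPM in standard trees. Its region is 219 bases long and overlaps another gene, which may have taken a part of its reads.

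The switching genes were spread unevenly over the chromosomes. Pp08 held 32 (1.18% of its genes), Pp01 26 (0.442%), Pp06 up to 28 Mb 19 (0.607%), Pp04 18 (0.621%), Pp03 up to 17 Mb 11 (0.713%), Pp05 9 (0.365%) and Pp07 7 (0.257%). By the same rule the segments left out held 42 genes on Pp02 (1.27% of its genes), 6 on distal Pp03 (0.371%) and 1 on distal Pp06 (0.187%). Windows of 1 Mb with 3 or more switching genes numbered 11. The fullest lay on Pp01 from 10 to 11 Mb with 5 genes, on Pp04 from 1 to 2 Mb with 4 and on Pp08 from 17 to 18 Mb with 4. Pp08 also held 3 of the windows with 3 genes.

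Tandem neighbours, taken as switching genes with at most 2 other annotated genes between them, made 12 runs with 26 genes, 11 runs of 2 and 1 run of 4. Without pillar 4, 15 genes lay in runs. In 6 of the 12 runs the genes were called expressed in exactly the same trees. These were the pairs Prupe.1G021500 and Prupe.1G021700, Prupe.3G027200 and Prupe.3G027300, Prupe.4G092800 and Prupe.4G092900, Prupe.4G198700 and Prupe.4G198800, Prupe.8G054700 and Prupe.8G054900, and the run of 4 on Pp08. In the other 6 runs the calls matched in 4 to 7 of the 8 trees.

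The run of 4 lies on Pp08 from 17541870 to 17562404 (peach genome version 2) and its 4 genes were expressed in the same 3 trees. Prupe.8G171900 had 0.0631, 144, 0 and 217 TPM in pillar trees and 335, 0.301, 0.117 and 0.169 TPM in standard trees. Prupe.8G171400 had 0, 101, 0.1 and 151 TPM in pillar trees and 194, 0.104, 0.152 and 0.146 TPM in standard trees. Pillar 7, pillar 10 and standard 7 expressed both genes, and the lowest of these trees lay 480-fold and 667-fold above the highest of the other 5 trees. Between them, Prupe.8G171700 had 0, 16.7, 0 and 19.7 TPM in pillar trees and 33.0, 0, 0 and 0 TPM in standard trees. Prupe.8G171800 had 0.153, 6.68, 0.425 and 18.4 TPM in pillar trees and 20.4, 0.293, 0.142 and 0 TPM in standard trees. In all 4 genes standard 7 was highest, pillar 10 next and pillar 7 the lowest of the 3 expressing trees.

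The same 3 trees were also high in the next annotated genes, which the rule did not take because their low trees stayed above 0.1 TPM. Prupe.8G172000 had 1.59, 1878, 1.77 and 2564 TPM in pillar trees and 4659, 2.01, 2.01 and 2.11 TPM in standard trees. Prupe.8G172100 had 1.83, 20.5, 3.97 and 44.3 TPM in pillar trees and 52.5, 4.73, 1.45 and 1.63 TPM in standard trees. The lowest of the 3 trees was 891-fold above the highest of the other 5 for Prupe.8G172000 and 4.32-fold for Prupe.8G172100. Inside the run, Prupe.8G171500 was listed at 0 TPM in all trees and Prupe.8G171600 did not exceed 0.354 TPM. On the other side, Prupe.8G171300 did not follow the pattern, with 0.555 to 1.07 TPM in pillar and 0.198 to 1.04 TPM in standard trees. A read could match up to 10 places in the alignment, and none of the genes around this run has a description in the sources used here, so whether they are copies of each other was not tested.

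**Figure D3:**
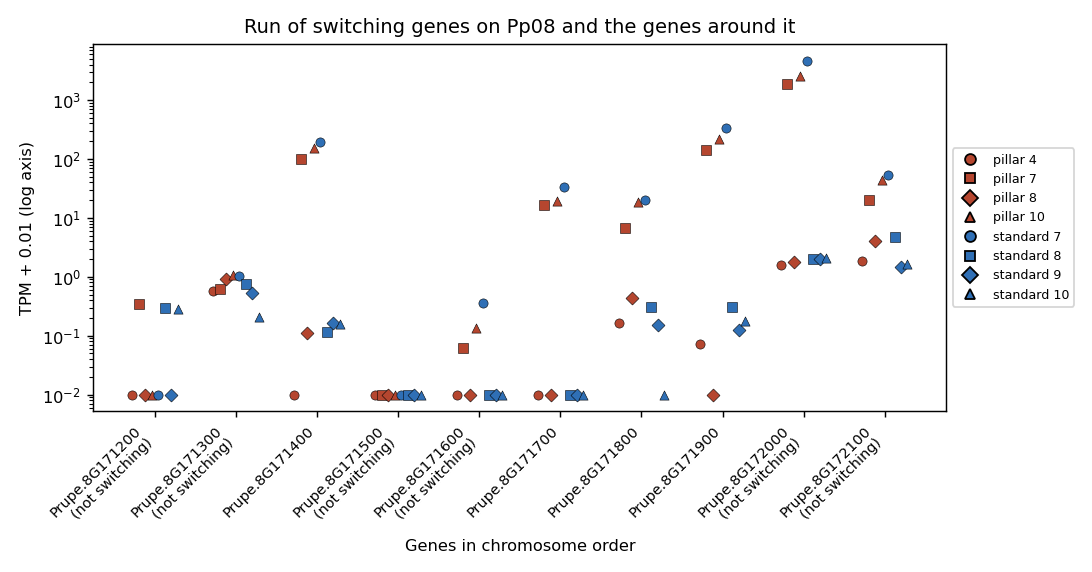
Levels (TPM + 0.01, log axis) of the 10 annotated genes in and around the run on Pp08, with one symbol for each tree, pillar trees in red and left of the standard trees in blue. Pillar 7, pillar 10 and standard 7 lie far above the other 5 trees in the 4 switching genes and in Prupe.8G172000, with up to 4659 TPM.

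Other genes of Pp08 shared low trees with this run, but only Prupe.8G217600 had exactly its low trees. Of the 32 switching genes there, 12 were under 1 TPM in pillar 4, pillar 8 and standard 8 and, apart from standard 9 and 10, expressed in every other tree. They start between 0.647 and 19.9 Mb. Exactly these 3 trees were low for Prupe.8G008700, which starts at 0.647 Mb, and for Prupe.8G080500, which starts at 11.4 Mb. Standard 10 was low as well for Prupe.8G034400, Prupe.8G073300, Prupe.8G074300, Prupe.8G093600 and Prupe.8G110000, which start between 3.18 and 14.0 Mb, on both sides of Prupe.8G080500. Standard 9 and 10 were both low for the run of 4 and for Prupe.8G217600, which start between 17.5 and 19.9 Mb. By the choice of this set, pillar 7, pillar 10 and standard 7 expressed all 12 genes.

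The calls of these 12 genes are cuts of their levels at 1 TPM, and the levels of 3 of them follow. Prupe.8G008700 had 0.0658, 30.1, 0.0912 and 19.4 TPM in pillar trees and 54.8, 0.0628, 14.1 and 27.0 TPM in standard trees. Prupe.8G073300, with up to 1655 reads, had 0.0508, 6.43, 0.0376 and 4.64 TPM in pillar trees and 15.7, 0.0582, 6.27 and 0.0364 TPM in standard trees. Prupe.8G074300 had 0.0281, 5.70, 0.0519 and 5.52 TPM in pillar trees and 13.4, 0.0537, 5.98 and 0 TPM in standard trees. Standard 7 was the highest tree of all 3, and for Prupe.8G073300 and Prupe.8G074300 its level was over 2 times that of the other expressing trees. Of the 12 genes 7 had no tree between 0.1 and 1 TPM.

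A second set of 9 genes on Pp08 was formed from genes low in standard 7, with or without pillar 10. By definition both trees expressed all of the first set. Standard 7 alone was without expression for Prupe.8G037500, Prupe.8G053900, Prupe.8G054700, Prupe.8G054900 and Prupe.8G080200, which start between 3.49 and 11.4 Mb. Standard 7 and pillar 10 were both low for Prupe.8G106900, Prupe.8G114600, Prupe.8G127200 and Prupe.8G153200, which start between 13.8 and 16.6 Mb. Prupe.8G106900 had 10.7, 6.57, 7.29 and 0 TPM in pillar trees and 0.0445, 9.93, 4.37 and 8.50 TPM in standard trees. Prupe.8G054900 had 10.2, 5.48, 12.3 and 6.80 TPM in pillar trees and 0, 15.5, 7.42 and 10.6 TPM in standard trees. The sets were defined by different low trees, so the lack of a tree low in both follows from the choice. The 2 sets interleave along the chromosome, as in the neighbours Prupe.8G080200 and Prupe.8G080500. Prupe.8G080500 had 0, 10.1, 0 and 38.0 TPM in pillar trees and 25.3, 0, 23.2 and 7.94 TPM in standard trees, whereas standard 7 was the only tree without Prupe.8G080200. Both sets were put together after their values had been seen. The remaining 11 genes of Pp08 had other patterns, and 1 of them had no tree between 0.1 and 1 TPM. Among them Prupe.8G027300 was low in pillar 4, pillar 8 and standard 8, like the first set, but also in standard 7, with 0.396 TPM.

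Smaller groups of genes with the same low trees were found on other chromosomes. On Pp06 standard 7 alone lacked Prupe.6G008100, Prupe.6G049300 and Prupe.6G087500 (0.661 to 5.92 Mb), and standard 9 alone lacked Prupe.6G069200 and Prupe.6G091500 (4.75 to 6.28 Mb). Prupe.6G008100 had 7.29, 8.4, 5.47 and 6.52 TPM in pillar trees and 0.0283, 9.29, 12.7 and 8.79 TPM in standard trees. Prupe.6G069200 had 5.73, 5.02, 4.31 and 5.2 TPM in pillar trees and 12.3, 4.34, 0 and 6.39 TPM in standard trees. For the first group standard 9 was the highest tree for 2 of the 3 genes and pillar 10 for Prupe.6G049300, and for the second standard 7 was highest for both. All 5 genes had no tree between 0.1 and 1 TPM.

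On Pp07, Prupe.7G000900 and Prupe.7G051400, which start at 0.137 and 8.94 Mb, shared their low trees. Prupe.7G000900 had 7.32, 0.0186, 10.3 and 0.0151 TPM in pillar trees and 0.0160, 8.29, 0.0159 and 8.37 TPM in standard trees. Prupe.7G051400 had 4.97, 0, 30.4 and 0 TPM in pillar trees and 0.0693, 6.01, 0 and 7.16 TPM in standard trees. Both were split evenly within each growth habit, with pillar 4 and 8 and standard 8 and 10 expressing. On Pp01 pillar 10 alone lacked Prupe.1G054900, Prupe.1G117100 and Prupe.1G144500 (3.87 to 11.3 Mb). The first of these had 2.44, 7.10, 6.22 and 0 TPM in pillar trees and 5.30, 6.83, 6.70 and 3.79 TPM in standard trees, while Prupe.1G117100 and Prupe.1G144500 overlap other genes and rested on at most 38 reads.

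Among the tandem pairs the clearest switch was on Pp04. Prupe.4G092800 (4658153 to 4662306) had 96.7, 54.1, 71.1 and 82.5 TPM in pillar trees and 0.0268, 150, 0 and 0.0770 TPM in standard trees. Its neighbour Prupe.4G092900 (4672275 to 4675178) had 43.6, 20.3, 29.2 and 37.5 TPM in pillar trees and 0.0768, 68.6, 0.0763 and 0 TPM in standard trees. All pillar trees and standard 8 expressed both genes, on up to 5472 and 1750 reads, and standard 7, 9 and 10 had at most 3 reads of either. The genes before the pair, Prupe.4G092600 and Prupe.4G092700, were expressed in all 8 trees with 52.9 to 142 TPM in pillar and 57.9 to 119 TPM in standard trees.

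The pair on Pp03 at 2.02 Mb was low in pillar 4 and standard 8. Prupe.3G027200 had 0, 9.14, 5.35 and 4.31 TPM in pillar trees and 6.27, 0.0227, 11.0 and 11.7 TPM in standard trees. Prupe.3G027300 had 0.226, 4.31, 5.32 and 1.79 TPM in pillar trees and 1.69, 0.0719, 1.58 and 1.52 TPM in standard trees. On either side Prupe.3G027100 and Prupe.3G027400 were expressed in all trees at 27.6 TPM or more, so the switch was limited to the pair among these 4 genes.

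On Pp01 at 1.5 Mb the pair Prupe.1G021500 and Prupe.1G021700 alternates with 3 genes described as chlorophyll a-b binding proteins, which carry the pigments of the light-harvesting antennae. Prupe.1G021500 had 0.0979, 0.533, 0.452 and 0.775 TPM in pillar trees and 1.01, 66.7, 0.909 and 2.98 TPM in standard trees. Prupe.1G021700 had 0.390, 0, 0 and 0.0858 TPM in pillar trees and 1.19, 51.4, 0.272 and 4.36 TPM in standard trees. Standard 8 exceeded every other tree in both. The described neighbour Prupe.1G021600 had 0.134 to 2.17 TPM in pillar trees and 5.76, 143, 0.915 and 9.03 TPM in standard trees. The outer neighbours Prupe.1G021400 and Prupe.1G021800 were expressed in all trees, and standard 8 was again the highest, with 857 and 1351 TPM. Near-identical copies could have shared reads, so the level of a single copy in this group is uncertain.

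The pair on Pp03 at 0.758 Mb lies among genes described as class I glutamine amidotransferase-like and listed under glyoxalase, an activity that detoxifies methylglyoxal. Prupe.3G012600 had the highest level of all 122 genes, with 348, 69.0, 16.6 and 9.69 TPM in pillar trees and 52.4, 40.4, 0 and 0.843 TPM in standard trees. Prupe.3G012300 had 18.5, 0.395, 1.0 and 0.567 TPM in pillar trees and 1.02, 1.65, 0.112 and 0.0360 TPM in standard trees. Pillar 4 was highest and standard 9 and 10 were lowest in both genes. The described neighbour Prupe.3G012400 was expressed in every tree, with 1748, 354, 586 and 565 TPM in pillar trees and 298, 351, 244 and 247 TPM in standard trees, and Prupe.3G012200 also did not switch. Pillar 4 was also highest for 17 of the 18 jasmonate genes, and their part in this difference was not tested.

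Other tandem pairs agreed in fewer trees. On Pp01 at 10.3 Mb, Prupe.1G131200 had 0.0905, 0.690, 6.44 and 0.717 TPM in pillar trees and 1.69, 1.04, 7.48 and 0.243 TPM in standard trees. Prupe.1G131500 had 1.14, 0.226, 13.6 and 0 TPM in pillar trees and 0, 0.0991, 1.54 and 0.186 TPM in standard trees. Pillar 8 and standard 9 expressed both, and the calls matched in 5 of the 8 trees. On Pp04 at 15.4 Mb, Prupe.4G236600 was missing from pillar 7 alone, with 12.8, 0, 35.2 and 28.8 TPM in pillar trees and 3.72, 4.60, 23.3 and 8.24 TPM in standard trees. Its neighbour Prupe.4G236700 was missing from pillar 7 and from all standard trees, and the next gene, Prupe.4G236800, had 35.6 to 242 TPM in pillar and 43.5 to 379 TPM in standard trees. On Pp06 at 25.7 Mb, Prupe.6G271300 and Prupe.6G271400 matched in 7 trees and differed in pillar 10, which had 7.37 and 0 TPM.

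Over all 122 genes, shared calls were most frequent within runs. Of 17 pairs of genes in the same run, 11 (64.7%) had the same call in all 8 trees. For pairs that share no run the share was 5 of 98 pairs (5.10%) on the same chromosome under 1 Mb apart, 24 of 315 (7.62%) at 1 to 5 Mb, 15 of 827 (1.81%) over 5 Mb apart and 61 of 6124 (0.996%) on different chromosomes. Genes occur in several pairs and trees share their parents, so these shares are descriptions. The run of 4 on Pp08 alone gives 6 of the 11 pairs, and with the runs kept in the share of pairs under 1 Mb apart was 16 of 115 (13.9%). Most of the matching pairs at 1 to 5 Mb also lie on Pp08, within the sets described above, so that share mainly describes 1 chromosome.

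**Figure D4:**
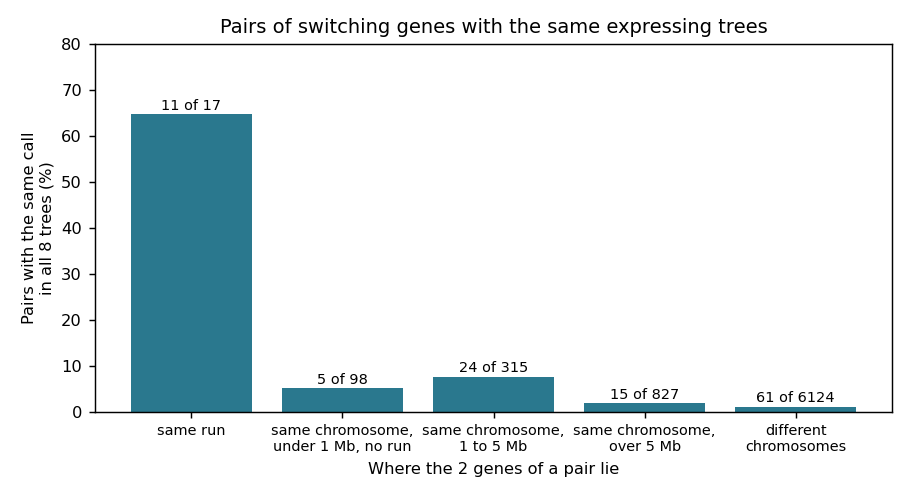
Share of pairs of switching genes with the same call (expressed at 1 TPM or more, or not) in all 8 trees, by where both genes lie (pairs of the same run are in the first bar only), with the numbers of pairs above the bars. The bar for pairs in the same run reaches 64.7%, against 0.996% for pairs on different chromosomes.

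Pillar and standard trees were compared next. The limits on TPM did not use the growth habit, but the segments left out include Pp02, which holds TAC1. All tested genes, given beside the switching genes below, still include these segments, so the shares are not on an equal footing. Neither habit held the switching genes for itself. Of the 122 genes 108 were expressed in at least 1 tree of each habit, 12 only in pillar trees and 2 only in standard trees. Of the 12, 7 were expressed in pillar 4 alone and 1 in pillar 8 alone, and the same counts over all genes were not made. No switching gene was expressed in all trees of one habit and in none of the other. Over all genes and trees there were 294 expressing calls in pillar and 286 in standard trees. With limma on log2(TPM + 0.5) and Benjamini-Hochberg adjustment over 20055 genes, 0 of the 122 genes had an adjusted p under 0.05, against 24 (0.12%) of all tested genes (12 in each direction, 0.0598% each), or 36 without pillar 4 and 85 without standard 8. At an unadjusted p under 0.05 there were 12 (9.84%), 7 higher and 5 lower in pillar trees, against 4.77% of all tested genes (1.86% higher and 2.91% lower). The rule chose genes that differ strongly between trees, so such shares, here and below, are given as descriptions. The voom method on the recovered reads also gave 0 of the 122 genes after adjustment, against 22 of all 20055 tested genes. At an unadjusted p under 0.05 it gave 9 of the 122, against 995 of all tested genes.

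Fold changes were large and so were their errors. The log2 fold change of pillar over standard trees ran from -4.04 to 5.10 with a median of 0.32, against a median of -0.09 over all tested genes. Of the switching genes 76 were higher and 46 lower, against 6153 higher and 13902 lower of all 20055 tested genes. The median standard error was 0.91 for the switching genes and 0.19 over all tested genes. The growth habits were without overlap for 5 genes (4.1%), against 2.93% of all tested genes. They were Prupe.1G227000, Prupe.1G270200 and Prupe.4G166000, higher in pillar trees (2.46%, against 1% of all tested genes), and Prupe.1G021500 and Prupe.1G139800, lower in pillar trees (1.64%, against 1.93%). Only pillar 4 expressed Prupe.4G166000. Pillar 7, 8 and 10 held 2 reads each and the standard trees at most 1, so its lack of overlap rests on counts near 0. This count was 11 (9.02%) without pillar 4, 8 (6.56%) without pillar 8 and 13 (10.7%) without standard 8, against 13.9%, 5.58% and 5.7% of all genes tested without these trees. The study's limits of an unadjusted p of at most 0.05, a fold change over 1.5 and a mean of 5 reads in each habit were met by 8 (6.56%), against 2.23% of all tested genes.

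Prupe.1G139800, of unknown function, had the lowest p of the 122 genes. It lies on Pp01 from 10.97 Mb and had 13.1, 0, 0.12 and 0 TPM in pillar trees and 22.7, 14.0, 31.9 and 13.6 TPM in standard trees. Its mean level was 3.30 ± 6.52 TPM over the pillar trees and 20.5 ± 8.67 TPM over the standard trees (SD, n = 4 each), and the highest pillar tree lay just under the lowest standard tree. This gave a log2 fold change of -4.04 (standard error 0.99, limma adjusted p = 0.590, exact two-sided permutation p = 0.0286, the smallest that 4 trees against 4 allow). Without pillar 4 it was -5.20 with a limma adjusted p of 0.000772, so this call rested on the absence of 1 tree. Over the trees left out in turn the adjusted p of this gene went up to 1.0.

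Prupe.1G181700, also of unknown function and on Pp01 from 15.91 Mb, was low in the same 3 pillar trees. It had 13.3, 0, 0.688 and 0 TPM in pillar trees and 12.8, 10.8, 18.3 and 12 TPM in standard trees, so that pillar 4 lay within the standard trees. The comparison gave a log2 fold change of -3.27 (standard error 0.94, limma adjusted p = 0.793), and without pillar 4 it was -4.36 with a limma adjusted p of 0.00286. Higher in pillar trees, Prupe.4G092800 had the largest log2 fold change of all 122 genes, at 5.10 (standard error 1.67, limma adjusted p = 0.888), and Prupe.4G092900 had 4.11 (standard error 1.44). Standard 8 lay above all pillar trees for both, and without standard 8 the log2 fold changes were 7.13 and 5.86 with limma adjusted p of 1.02e-05 and 4.50e-05.

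Prupe.4G236700 was expressed in pillar trees only, with 3.09, 0, 6.21 and 12.1 TPM, and was listed at 0 TPM in all 4 standard trees. The log2 fold change on the log2(TPM + 0.5) scale was 2.81 (standard error 0.84, limma adjusted p = 0.823), and without pillar 7 it was 3.75 with a limma adjusted p of 0.0216. Prupe.1G227000, described as sulfite oxidase, an enzyme that converts sulfite to sulfate, had 3.44, 6.93, 5.38 and 7.22 TPM in pillar trees and 2.65, 3.01, 0.0816 and 0.0785 TPM in standard trees. The pillar trees lay above the standard trees, and standard 9 and 10 were the low trees (log2 fold change 2.12, standard error 0.64, limma adjusted p = 0.823). Prupe.1G270200, of unknown function, had 1.39, 9.93, 2.40 and 2.29 TPM in pillar trees and 0.711, 0.907, 1.06 and 0.0566 TPM in standard trees, so that pillar 4 was the pillar tree nearest to the standard trees. The comparison gave a log2 fold change of 1.69 (standard error 0.54, limma adjusted p = 0.853).

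**Figure D5:**
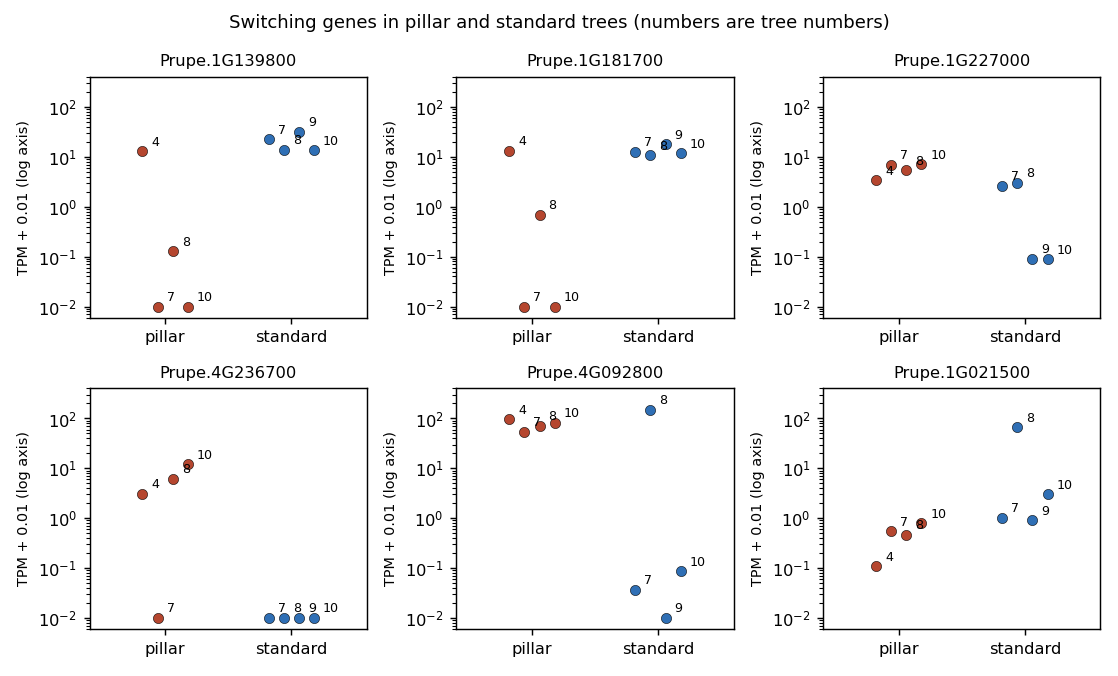
Level of 6 switching genes in pillar trees (left in each panel) and standard trees (right), as TPM + 0.01 on a log axis, with the tree number beside each point. Pillar 4 sits with the standard trees for Prupe.1G139800 and Prupe.1G181700, and standard 8 sits above the pillar trees for Prupe.4G092800.

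Within lane 6, with pillar 8 and 10 against all standard trees, 5 of the 113 switching genes tested (4.42%) had a limma adjusted p under 0.05, against 21 of all 19994 genes tested (0.105%). The rule chose genes with large differences between trees, and only pillar 8 and 10 remained of the pillar trees. The shares are therefore not on an equal footing, and no enrichment is read from them. These were Prupe.1G139800, Prupe.1G181700 and Prupe.8G260700, all lower in pillar trees, and Prupe.4G236700 and Prupe.6G148700, both higher. Prupe.8G260700 had 23.4, 8.94, 0 and 0 TPM in pillar trees and 9.59, 5.68, 10.3 and 12.1 TPM in standard trees, so that pillar 7 lay within the standard trees and pillar 4, the other tree of lane 8, above them. Prupe.6G148700 had 0, 1.76, 7.48 and 4.28 TPM in pillar trees and 0.303, 0, 0 and 0 TPM in standard trees. Both overlap other genes, and the groups of all 8 trees overlapped for both.

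The function of few of these genes is known from the sources used here. The annotated gene list, which was drawn up on these trees for differences between the growth habits and is therefore not independent of them, holds 405 genes outside the segments. Of these 16 switched, 9 of them with a description and 7 listed as unknown. By the gene families fixed for this report, 1 of 13 cytochrome P450 genes and 1 of 17 genes of terpene and phenylpropanoid enzymes switched. None did of 3 resistance genes, 8 receptor-like genes, 8 glycosyltransferases, 13 jasmonate and wound genes, 11 pathogenesis-related genes, 16 transcription factors, 2 F-box genes and 2 transposon-derived genes. Of the list's categories, biotic and abiotic stress held 4 switching genes of 55, glyoxalase 2 of 4, reactive oxygen species 1 of 15, thioredoxin 1 of 4 and auxin 1 of 10. The share of switching genes among those listed cannot be carried over to the switching genes that are not on it.

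Of the 9 described genes 6 were highest in pillar 4. Prupe.6G126400, a cytochrome P450 gene matched to CYP94C1, an enzyme that oxidises jasmonoyl-isoleucine in Arabidopsis, had 10.1, 0.322, 0.591 and 1.86 TPM in pillar trees and 0.0921, 0.470, 0.457 and 1.58 TPM in standard trees. Prupe.7G216300, a myo-inositol oxygenase gene, had 23.9, 0.562, 1.17 and 1.86 TPM in pillar trees and 0.0439, 0.717, 0.872 and 1.72 TPM in standard trees. The auxin-listed gene Prupe.3G144500, described as an aldolase-type TIM barrel protein, was lowest in standard 8 at 0 TPM and highest in pillar 4 at 39.1 TPM. In the first 2 of these genes the other 7 trees formed 1 low range that both growth habits shared. Without pillar 4 their log2 fold changes were 0.31 and 0.44, against 1.07 (standard error 0.76) and 1.42 (standard error 0.91) with all trees, and the limma adjusted p with all trees was 0.902 for both. The part of the jasmonate genes, 17 of 18 highest in pillar 4, was not tested here.

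Prupe.3G119100, an O-methyltransferase gene, had 5.41, 2.56, 0.242 and 2.61 TPM in pillar trees and 1.39, 0.0832, 0.243 and 0.0780 TPM in standard trees. Prupe.8G254500, of the thioredoxin superfamily, had 6.34, 10.5, 0 and 6.65 TPM in pillar trees and 2.12, 0.721, 0.561 and 0.540 TPM in standard trees. In both, pillar 8 was the low pillar tree and lay within or below the standard trees, and pillar 4, 7 and 10 lay above all standard trees. The log2 fold changes were 1.62 (standard error 0.64) and 1.56 (standard error 0.88), each with a limma adjusted p of 0.902. Prupe.8G256700, an adenine nucleotide alpha hydrolase-like gene, had 0, 0.254, 1.08 and 15.8 TPM in pillar trees and 0.763, 0, 2.27 and 1.04 TPM in standard trees, so pillar 10 alone exceeded a low range shared by the other trees.

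Switching genes were shorter than other genes. Their regions had a median length of 1220.5 bases, against 2608 bases for all genes outside the segments, and 18.9% were under 500 bases, against 4.28%. Overlap with another gene was found for 19 (15.6%), against 10.1% of all genes outside the segments. A given TPM rests on fewer reads in a short gene, and the part of this in the difference in length was not tested. Both neighbouring genes were expressed at 1 TPM or more in all 8 trees for 37 (30.3%) of the switching genes, against 44.8% of 21352 genes outside the segments, and neither neighbour was for 39 (32%), against 15.1%. A neighbour at or under 0.1 TPM in all trees lay on one side only of 31 (25.4%), against 20.3%, and on both sides of 3 (2.46%), against 2.86%. Where a switching gene had no tree between 0.1 and 1 TPM, its highest expressing tree exceeded its lowest expressing tree 3.47-fold at the median (range 1.41 to 11.0, 56 genes).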

How the data were processed

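Shoot tips of 4 pillar and 4 standard trees were compared, grouped by growth habit as labelled. The labels give 4 shoot tips of one branch and the methods 3 for each tree, and p-values measure the spread between single trees. Single 50-bp reads were aligned by the authors with CLC Genomics Workbench against version 2 of the peach genome. The version of the tool is not given in the sources used here, and up to 10 hits for each read and a similarity fraction of 0.95 were set. The deposited table holds TPM for each tree, summing to 1000000, on lengths of whole gene regions with introns. The methods name RPKM, but the deposited values are TPM. Of its 53746 lines 26873 are second lines of each gene, all at 0, and were not used. The deposited columns of the authors' own comparison (score for the fold change and for the larger group mean, log2 fold change, p-value) were not used. The number of columns of single samples left unused was 0.

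Reads were recovered from the equal steps of TPM times length in each tree. All nonzero values under 10000 reads (100%) came out whole within 0.05 reads, giving 18429259 to 23994336 reads for each tree. Intervals and floors cover counting error only, and the floor for a tree at 0 was 3 reads. Growth habits were compared with limma 3.58.1 in R 4.3.3 on log2(TPM + 0.5), with a variance trend, over the 20055 genes that averaged 0.5 TPM or more, and with Benjamini-Hochberg adjustment at 0.05. Fold changes on this scale understate those of low genes. Counts, exact permutation tests and plots used Python 3.11.15, pandas 2.3.3, numpy 2.4.6, scipy 1.17.1 and matplotlib 3.10.9. The comparison was tested on simulated data.

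Alternatives were other limits of the rule, pseudocounts, filters and scalings, voom on recovered reads, lane 6 alone, the tree number as a block and each tree left out in turn. The genes, the lists and the tests were chosen with earlier results of these data known. Genes shown in detail were those with an adjusted p under 0.05 or without overlap of the habits, those with the highest levels for each number of expressing trees, the first long runs, those at the limits of the rule and up to 2 for each family or category. The other genes named were chosen after their values were seen. Descriptions came from the article's annotated gene list (641 genes). No gene IDs matched the RefSeq table (0 matches), so protein identity between neighbours was not analysed here and no sequences are shown.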

Additional observations from a re-analysis of the deposited data

Results flagged for a closer look

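Single trees stood apart within a growth habit in 25 of 64 groups of 4 trees, over the 32 genes shown in detail. A tree counted when its gap to the nearest tree, divided by the range of the group, was above Dixon's critical value for 4 values, and chance gives this in about 1 of 20 groups. The genes were chosen for trees that differ, so a high count follows from the choice. The trees were pillar 4 in 7 groups, standard 7 in 6, standard 8 in 5, pillar 8 in 3, standard 9 in 2 and pillar 7 and pillar 10 in 1 each.

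Pillar 4 was the high tree with a ratio of 0.991 for Prupe.1G139800, 0.948 for Prupe.1G181700, 0.966 for Prupe.3G012300, 0.872 for Prupe.3G144500, 0.998 for Prupe.4G166000, 0.842 for Prupe.6G126400 and 0.944 for Prupe.7G216300. Pillar 8 was high with 0.901 for Prupe.1G131200, 0.916 for Prupe.1G131500 and 0.983 for Prupe.4G017100. Pillar 7 was high with 0.882 for Prupe.1G270200 and pillar 10 with 0.932 for Prupe.8G256700.

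Standard 7 was high with 1 for Prupe.8G171400, 1 for Prupe.8G171700, 0.986 for Prupe.8G171800, 0.999 for Prupe.8G171900, 0.874 for Prupe.3G119100 and 0.886 for Prupe.8G254500. The first 4 of these are the run on Pp08, and neighbouring genes are not independent. Standard 8 was high with 0.969 for Prupe.1G021500, 0.92 for Prupe.1G021700, 0.999 for Prupe.4G092800, 0.999 for Prupe.4G092900 and 1 for Prupe.4G017100, where its level was 0.281 TPM. Standard 9 was high with 0.88 for Prupe.1G131500 and low with 0.937 for Prupe.4G166000, where the other standard trees had at most 0.0762 TPM.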

How the results depend on the processing

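The number of switching genes depended on the limits. It was 213 with a lowest level of at most 0.5 TPM, 65 with a highest level of at least 10 TPM, 269 with at least 2 TPM and 65 on RPKM from the recovered reads, of which 51 were among the 122. Leaving out each tree gave 94 to 119. Genes with 1 expressing tree numbered 5 from 0.5 TPM, 14 from 2 TPM and 4 to 10 with trees left out, lowest without pillar 4. Genes expressed in all trees but 1 numbered 17 with at least 50 reads, a limit chosen after seeing the data. With a tree left out, genes expressed in all but 1 of the remaining trees numbered 23 to 32. Genes in runs numbered 15 with no gene in between and 15 to 26 with trees left out, and genes whose habits did not overlap 5 to 13.

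Adjusted p under 0.05 was reached by 0 genes with other pseudocounts, filters and scalings. Within lane 6 it was reached by 2 genes higher and 3 lower in pillar trees, among 21 of 19994 tested genes called there, and with trees left out by 0 to 2 higher and 0 to 2 lower. The called genes of all tested numbered 17 to 85 with trees left out. The tree numbers do not pair the trees, since deviations correlated with 0.288, 0.0964 and -0.0911 for numbers 7, 8 and 10, and not every tree correlated best with its own number. With the number as a replicate block over these 6 trees 1 gene was lower (Prupe.1G139800, -4.96, limma adjusted p = 0.0391) and 5 genes were called in all. Without the block the same 6 trees, a fit added after seeing the data, gave 2 lower, and 27 of 19998 genes were called in all.

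Of 569 alternative fold changes of the 32 genes shown in detail, 539 kept direction and call, 9 gained a call and 21 changed sign, over 8 genes with log2 fold changes of at most 1.46 in size. Prupe.1G131200 had 0.46 within lane 6 and 0.67 with or without the replicate block. Prupe.3G012300 had -0.10 and Prupe.8G093600 1.48 with or without it. With trees left out the log2 fold changes ran from -0.97 to 0.19 for Prupe.1G117100, -1.16 to 0.20 for Prupe.1G131200, -1.06 to 1.80 for Prupe.1G190400, -0.091 to 2.16 for Prupe.8G054700, -0.29 to 2.14 for Prupe.8G080200, -1.46 to 0.64 for Prupe.8G093600 and -0.61 to 1.07 for Prupe.8G256700. The cause was not tested. Depth limits the calls, since 30 of the 122 genes had under 50 reads in their highest tree.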
